A study of Mus musculus with 6 samples.

Results

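The BCL2 family decides whether a cell's mitochondria release the proteins that start apoptosis. The 10 family genes described here were matched by symbol in the deposited table, and all 10 of 10 were found among its 14408 genes. They comprise 3 anti-apoptotic genes (Bcl2, Bcl2l1 and Mcl1), 2 effector genes (Bax and Bak1) and 5 BH3-only genes (Bcl2l11, Bbc3, Pmaip1, Bid and Bad), so that 7 are pro-apoptotic. The question was whether pro-apoptotic and anti-apoptotic transcripts differed between L-proline and PBS.

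The 6 libraries are labelled as left ventricle and came from C57BL/6J males aged 8 weeks when the diet began. In all of them HFpEF, heart failure in which the ejection fraction is preserved, was modelled by a high-fat diet together with the nitric oxide synthase inhibitor L-NAME at 0.5 g/L in the drinking water for 8 to 12 weeks. The PBS group (3 libraries) then received vehicle. The L-proline group (3 libraries) received 300 mg/kg of L-proline per day by intraperitoneal injection for 4 to 8 weeks. No group without the HFpEF model was analysed here, and the labels do not say that each library was a separate animal, so the tests below see only how these libraries spread, which may be technical.

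As background, BAX and BAK are the effectors: once activated they form pores in the outer mitochondrial membrane, through which cytochrome c reaches the cytosol and caspases are activated. BCL2, BCL-XL (the main product of Bcl2l1) and MCL1 hold the effectors and the BH3-only proteins in check. BH3-only proteins are the stress sensors of the family, and many are controlled after transcription, by phosphorylation, cleavage or degradation, which RNA levels do not show. In the adult heart, muscle cells divide little and are long-lived, and loss of these cells by apoptosis is a known feature of injury.

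The defining transcripts of heart muscle were absent or nearly so. Of 11 cardiomyocyte markers, 5 were listed, and Ttn, Ryr2, Myl2 and Tnni3 stayed at or below 0.212 FPKM (fragments per unit of gene length and of sequencing depth) in every library. The only marker above 1 FPKM was the troponin gene Tnnt2, whose mean was 32.0 ± 0.777 FPKM (SD, n = 3) in PBS and 14.5 ± 1.51 (SD, n = 3) in L-proline. The summed level of 6 listed fibroblast markers ran from 2025 to 2074 FPKM in PBS and from 2756 to 3124 in L-proline, while the sum of 4 listed endothelial markers did not exceed 0.348. Most of the fibroblast sum was Col3a1 (means 1226 and 1824 FPKM) and Col1a2 (615 and 798), which rose, as did Col1a1. The fibroblast receptor gene Pdgfra fell from 7.84 ± 0.463 to 5.97 ± 0.135 FPKM (SD, n = 3; limma, adjusted p = 0.0215), and Dcn and Postn did not pass. For 7 listed smooth muscle and pericyte markers the sum was 941 to 1055 FPKM in PBS and 848 to 1046 in L-proline. Most of it was Acta2 (means 850 and 826 FPKM), which did not pass. Myh11, Rgs5 and Vtn of that list stayed at or below 0.145 FPKM in every library. The sum of 3 listed macrophage markers was 4.56 to 5.59 FPKM in PBS and 6.52 to 7.72 in L-proline. Of these, Cd68 rose from 3.17 ± 0.536 to 5.19 ± 0.297 FPKM (SD, n = 3; limma, adjusted p = 0.0101). Lyz2 did not pass, and Csf1r, at means of 0.138 and 0.197 FPKM, was not tested. The other macrophage markers of the 7 sought, Adgre1, Fcgr1, C1qa and C1qb, were not listed. The part of these differences in the results below was not tested, and in bulk RNA fewer cells of a type and less RNA per cell cannot be told apart. Which cells the family transcripts came from was not tested either. With most heart muscle markers absent or near 0, the values below cannot be read as those of heart muscle cells, despite the left ventricle label. Library totals recovered from the values lay between 34990473 and 37498030 fragments.

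Of the 10 genes, all of which had a mean of at least 1 FPKM and were tested, Bbc3 rose and Bcl2 fell, and the other 8 did not pass. Across all 10500 tested genes 7.50% rose and 12.1% fell, 19.6% in all, so 2 of 10 is a share near the background. By role, 0 of 3 anti-apoptotic genes rose and 1 fell, 0 of 2 effectors passed, and 1 of 5 BH3-only genes rose and 0 fell. The test was limma on log2(FPKM + 1), two-sided, with Benjamini-Hochberg adjustment over all tested genes and a threshold of 0.05. A fold change on that scale understates the change of a gene with a low level. The median log2 fold change was 0.19 for the 7 pro-apoptotic genes, 0.06 for the 3 anti-apoptotic genes and -0.06 for all tested genes.

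**Figure D1:**
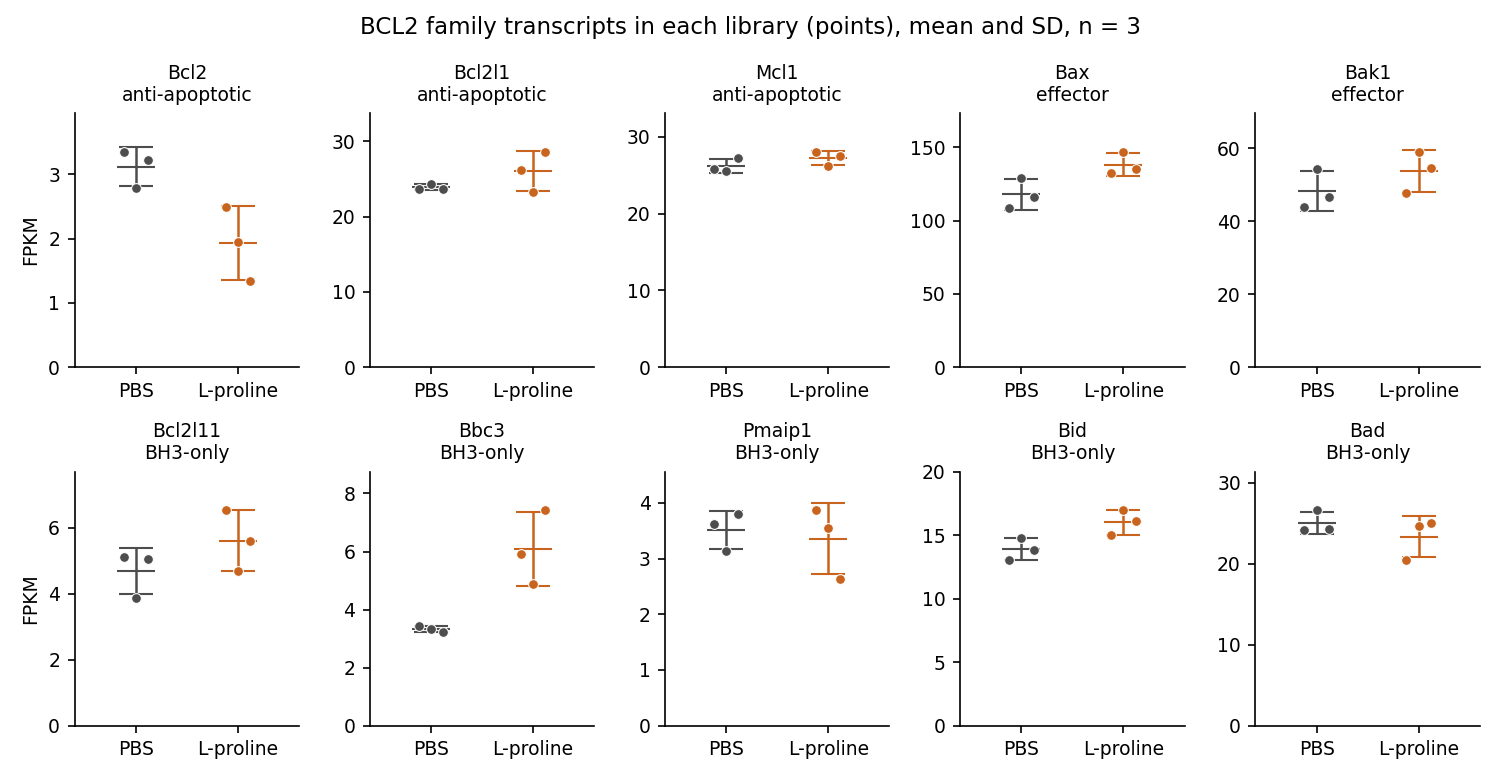
Each panel shows FPKM on the vertical axis, from 0, for 1 gene in the 3 PBS and 3 L-proline libraries (points) with the group mean and SD. Bbc3 lay at 3.23 to 3.43 FPKM in PBS and 4.88 to 7.42 in L-proline, and Bcl2 at 2.78 to 3.35 in PBS and 1.35 to 2.50 in L-proline; for these and for Bax and Bid the groups do not overlap.

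Bbc3 encodes PUMA, a BH3-only protein that binds every anti-apoptotic member and is a classical target gene of p53. It stood at 3.43, 3.34 and 3.23 FPKM in PBS 1, 2 and 3, and at 5.92, 4.88 and 7.42 in L-proline 1, 2 and 3. All L-proline libraries were above all PBS libraries, and the L-proline libraries were spread more widely, with L-proline 3 highest. The means were 3.33 ± 0.0991 FPKM (SD, n = 3) in PBS and 6.08 ± 1.28 (SD, n = 3) in L-proline, 1.82 times the PBS mean. The log2 fold change was 0.69 ± 0.13 (SE; 95% confidence interval 0.39 to 0.99; limma, adjusted p = 0.00942). The depth behind these values was 357 to 387 fragments per library in PBS and 514 to 821 in L-proline. Bbc3 passed in 13 of 13 alternatives, with an adjusted p between 0.00634 and 0.0465 (limma).

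The letters just before the Bbc3 start are shown because Bbc3 was the only gene of the family that rose. A further reason was that 6 of 8 tested genes of the p53 list, described below, also rose. Promoter sequences came from a RefSeq table on build GRCm38.p6, which holds 9 of the 10 genes; the processing notes name GRCm39, so they are matched by symbol and not by position. The 250 bases before each listed start were searched on both strands for the p53 response element, taken as 2 adjoining half-sites of 10 bases with at most 3 mismatches and the C and G of both cores intact. This tolerance was chosen after the Bbc3 sequence had been seen. Such a match stood before Bbc3 and before 0 of the other 8 genes in the table, against 1.36% of 27018 genes in the table. In the first line capitals mark that match, at positions -97 to -78 from the start, which has 3 mismatches.

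Bbc3, chr7:16309456-16309535, plus strand: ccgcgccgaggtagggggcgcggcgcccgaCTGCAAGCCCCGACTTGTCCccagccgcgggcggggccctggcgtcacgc
Bax, chr7:45467060-45467129, minus strand: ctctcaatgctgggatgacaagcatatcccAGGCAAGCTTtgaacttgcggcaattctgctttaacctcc
Bcl2l11, chr2:128125788-128125847, plus strand: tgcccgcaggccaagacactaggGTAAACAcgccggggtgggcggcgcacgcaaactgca

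The Bax line is shown for its exact p53 half-site (capitals), at positions -201 to -192, a match found before 1 of the 9 genes and before 8.20% of all genes in the table. The Bcl2l11 line is shown for the FOXO motif GTAAACA (capitals), which was also found before a second, downstream start of Bbc3, so that 2 of 9 genes held it, against 3.54% of all genes. The ATF4 and CHOP motif TGATGNAA was found before 0 of the 9 genes and before 3.90% of all genes. A match is a run of letters in these windows and does not show that a factor bound there.

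Bcl2 is the founding anti-apoptotic gene of the family and, with Bbc3, the only member that passed. Its values were 3.35, 2.78 and 3.22 FPKM in PBS 1, 2 and 3, and 2.50, 1.95 and 1.35 in L-proline 1, 2 and 3. The groups did not overlap, and L-proline 3 was lowest. The mean was 3.12 ± 0.297 FPKM (SD, n = 3) in PBS and 1.93 ± 0.576 (SD, n = 3) in L-proline, 0.619 times the PBS mean. The log2 fold change was -0.51 ± 0.15 (SE; 95% confidence interval -0.85 to -0.17; limma, adjusted p = 0.0467). This call was narrow: Bcl2 passed in 5 of 13 alternatives, with a negative fold change in all 13 and an adjusted p between 0.0104 and 0.152 (limma). The adjusted p from limma was 0.152 without PBS 1, 0.0639 without PBS 2, 0.149 without PBS 3, 0.102 without L-proline 2 and 0.0856 without L-proline 3. It was also 0.0533 with a pseudocount of 0.1, 0.0727 with no filter on low values and 0.0504 with median-of-ratios scaling (limma).

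The other anti-apoptotic genes were far more abundant than Bcl2 on the FPKM scale and did not pass. Bcl2l1 stood at 23.7, 24.3 and 23.7 FPKM in PBS 1, 2 and 3, and at 26.2, 23.3 and 28.6 in L-proline 1, 2 and 3. The groups overlapped because L-proline 2 was the lowest of the 6 libraries. Its log2 fold change was 0.11 ± 0.09 (95% confidence interval -0.09 to 0.31; limma, adjusted p = 0.380). Mcl1, whose protein is short-lived and is needed for the survival of heart muscle cells in mice, had 25.8, 25.6 and 27.2 FPKM in PBS and 28.1, 26.2 and 27.5 in L-proline. Its log2 fold change of 0.06 ± 0.07 had a 95% confidence interval of -0.10 to 0.21 (limma, adjusted p = 0.593), the narrowest interval of the 10 genes. Together the 3 anti-apoptotic genes summed to 53.2 ± 0.831 FPKM (SD, n = 3) in PBS and 55.2 ± 3.29 (SD, n = 3) in L-proline, with overlapping groups, and Bcl2 made up the smallest share of that sum.

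Bax, the pore-forming effector that moves from the cytosol to mitochondria, had the highest level of the family in both groups. It measured 109, 129 and 116 FPKM in PBS 1, 2 and 3, and 133, 147 and 135 in L-proline 1, 2 and 3. All L-proline values lay above all PBS values, although L-proline 1 exceeded PBS 2 by little. The mean was 118 ± 10.6 FPKM (SD, n = 3) in PBS and 138 ± 7.68 (SD, n = 3) in L-proline, 1.17 times the PBS mean. The log2 fold change of 0.23 ± 0.08 (SE; 95% confidence interval 0.04 to 0.42) missed the threshold (limma, adjusted p = 0.0905). Bax passed with quantile normalization (limma, adjusted p = 0.0251) and with a replicate block (limma, adjusted p = 0.0381). Its adjusted p ran up to 0.297 over the 13 alternatives (limma).

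Bak1 encodes the effector that resides in the mitochondrial outer membrane. Its values were 44.0, 54.3 and 46.6 FPKM in PBS 1, 2 and 3, and 47.6, 59.1 and 54.6 in L-proline 1, 2 and 3. The groups overlapped, and in both the second library was the highest, as for Bax. The log2 fold change was 0.15 ± 0.11 (95% confidence interval -0.09 to 0.40; limma, adjusted p = 0.345). In the GENCODE M21 annotation 25.5% of the exonic bases of Bak1 also lie in exons of Ggnbp1 on the opposite strand, and no source used here says whether counting was by strand.

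Among the remaining BH3-only genes none passed. Bid, whose protein links death receptors to mitochondria after cleavage by caspase 8, had 13.1, 14.8 and 13.9 FPKM in PBS and 15.0, 17.0 and 16.1 in L-proline. All L-proline values exceeded all PBS values, with a log2 fold change of 0.19 ± 0.08 (95% confidence interval 0.003 to 0.38; limma, adjusted p = 0.137). Bcl2l11, which encodes BIM, had 5.11, 3.87 and 5.05 FPKM in PBS and 6.53, 4.68 and 5.59 in L-proline, with overlapping groups. Its log2 fold change was 0.22 ± 0.13 (95% confidence interval -0.09 to 0.52; limma, adjusted p = 0.285), and the second library was lowest in each group.

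Pmaip1 and Bad had fold changes below 0. Pmaip1 encodes NOXA, which binds MCL1, and like Bbc3 it is a known p53 target. It had 3.63, 3.14 and 3.80 FPKM in PBS and 3.87, 3.55 and 2.64 in L-proline. L-proline 1 was the highest and L-proline 3 the lowest of all 6 libraries, so the groups overlapped fully, and the log2 fold change was -0.06 ± 0.13 (95% confidence interval -0.35 to 0.23; limma, adjusted p = 0.759). Its sign turned to 0.06 without L-proline 3 and to 0.04 with quantile normalization. Bad, whose protein is held inactive by phosphorylation and binding to 14-3-3 proteins, had 24.2, 26.6 and 24.2 FPKM in PBS and 20.4, 24.7 and 25.0 in L-proline. The groups overlapped, with a log2 fold change of -0.10 ± 0.09 (95% confidence interval -0.32 to 0.12; limma, adjusted p = 0.483). Exons on the opposite strand overlap 17.7% of the exonic bases of Bid (Bcl2l13) and 20.5% of those of Bad (Gpr137). Bcl2 shares 6.09% with the antisense gene D630008O14Rik, and Bax shares 12.2% with Gm45808 on its own strand, which counting by strand would not separate. No exon of another gene overlapped Bcl2l1, Mcl1, Bcl2l11, Bbc3 or Pmaip1 in that annotation.

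**Figure D2:**
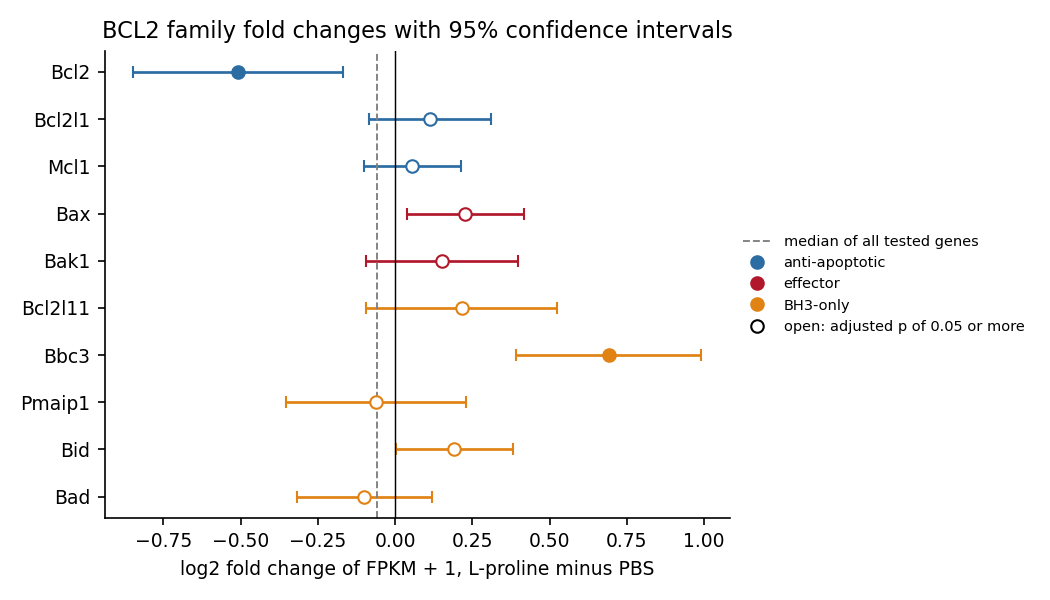
The horizontal axis gives the log2 fold change of FPKM + 1, L-proline minus PBS, with 95% confidence intervals; colours mark the roles, filled points passed and the dashed line is the median of all tested genes, -0.06. Bcl2 at -0.51 and Bbc3 at 0.69 lie farthest from 0, and the intervals of Bcl2l1, Mcl1, Bak1, Bcl2l11, Pmaip1 and Bad include 0.

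Groups did not overlap for 4 of the 10 genes, with L-proline higher for Bbc3, Bax and Bid and lower for Bcl2. Across all tested genes 40.1% did not overlap, 16.0% with L-proline higher and 24.0% with L-proline lower. Among the 7 pro-apoptotic genes 5 had a positive and 2 a negative log2 fold change, and among the 3 anti-apoptotic genes 2 were positive and 1 negative. Over all tested genes 4263 were positive and 6237 negative. Most genes of both roles were thus positive, and the signs do not set the roles apart.

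The order of levels within the family was much the same in both groups. Bax was highest and Bak1 next, and both stood apart from the genes below by more than the range of the libraries. Mcl1, Bad and Bcl2l1 followed in PBS at means of 26.2, 25.0 and 23.9 FPKM, and neighbours in this trio overlapped in both groups. Bid came next at 13.9 FPKM, then Bcl2l11 at 4.68. In PBS the lowest trio was Pmaip1, Bbc3 and Bcl2 at 3.52, 3.33 and 3.12 FPKM, with ranges that overlapped between neighbours. In L-proline Bbc3 stood at 6.08 FPKM beside Bcl2l11 at 5.60, their ranges overlapping, while Pmaip1 at 3.36 and Bcl2 at 1.93 lay apart from each other.

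Ratios of pro- to anti-apoptotic transcripts within each library differed in whether the groups separated. The Bax to Bcl2 ratio was 32.4, 46.5 and 36.1 in PBS 1, 2 and 3, and 53.1, 75.5 and 100.3 in L-proline 1, 2 and 3. The groups did not overlap, and the mean log2 ratio was 0.96 higher in L-proline. It was 0.74 higher without L-proline 3, the library with the least Bcl2. Bax has 958 bases and Bcl2 7349, so the ratio also carries the trend over gene length described below. With that trend removed, an alternative chosen after seeing the data, the mean log2 ratio was 0.76 higher in L-proline. Set against Bcl2l1 in place of Bcl2, Bax gave ratios of 4.59, 5.32 and 4.91 in PBS and 5.07, 6.31 and 4.72 in L-proline, with overlapping groups and a mean log2 ratio 0.11 higher in L-proline. These ratios carry no test, since they restate the values of the single genes.

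For the BH3-only genes, Bbc3 to Mcl1 was 0.133, 0.131 and 0.119 in PBS and 0.211, 0.186 and 0.270 in L-proline, with no overlap. Bcl2l11 to Mcl1 was 0.198, 0.152 and 0.185 in PBS and 0.233, 0.179 and 0.203 in L-proline, with overlap. Bad to Bcl2l1 was 1.02, 1.09 and 1.02 in PBS and 0.780, 1.06 and 0.872 in L-proline, also with overlap. Summed over the family, pro- to anti-apoptotic FPKM was 3.83, 4.47 and 3.93 in PBS and 4.09, 5.07 and 4.29 in L-proline. The groups overlapped in that sum, most of which is Bax and Bak1.

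**Figure D3:**
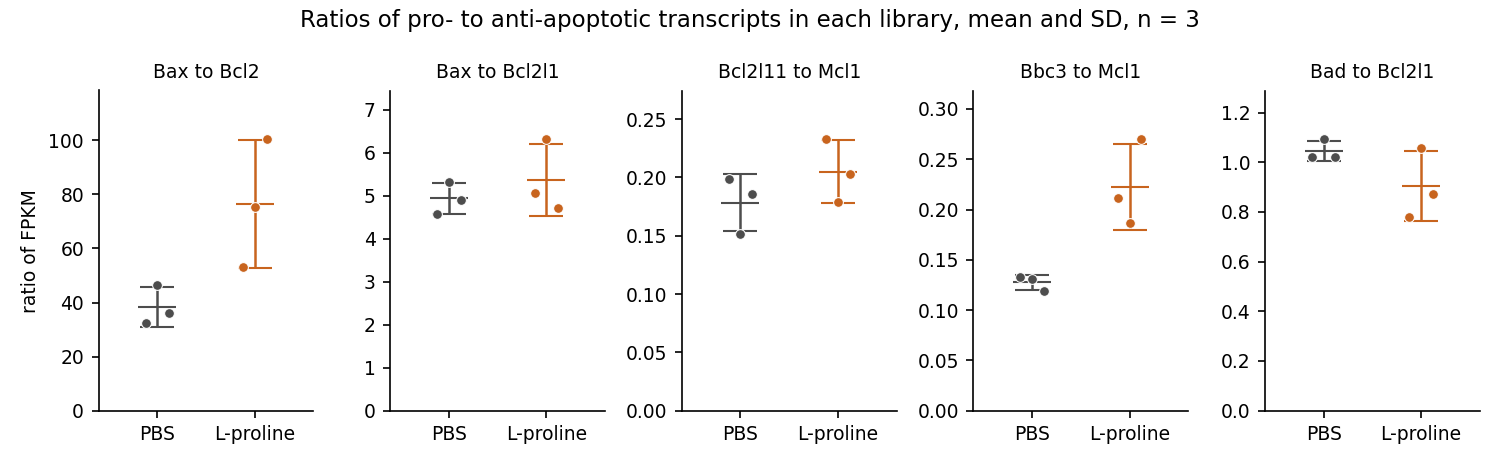
Each panel gives the ratio of 2 FPKM values, from 0, in the 3 PBS and 3 L-proline libraries (points) with the group mean and SD. The ratios Bax to Bcl2 and Bbc3 to Mcl1 separate the groups, while Bax to Bcl2l1, Bcl2l11 to Mcl1 and Bad to Bcl2l1 overlap.

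Transcript length moved with the groups across all genes. Genes of up to 1000 bases, the band of Bax, had a median log2 fold change of 0.10, and it fell band by band to -0.13 for genes over 9000 bases, the band of Bcl2l11. PBS 2 ran with L-proline 2 and 3, with median deviations below 0 for genes over 9000 bases (-0.05 in PBS 2, -0.10 in L-proline 2 and -0.18 in L-proline 3), while L-proline 1 stood at 0.09 beside PBS 1 at 0.14 and PBS 3 at 0.11. The genes nearest in length to Bcl2 (6001 to 9000 bases) had a median of -0.12, against -0.51 for Bcl2. Mcl1, in the same band, was at 0.06. Those nearest to Bbc3 (3001 to 4500 bases) had a median of -0.06, against 0.69 for Bbc3.

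With the length trend of each library removed, an alternative chosen after seeing the data, 3 of the 10 genes passed. Over all tested genes 2303 of 10500 passed in that fit, so 3 of 10 is again a share near the background. Bbc3 was at 0.73 ± 0.14 (limma, adjusted p = 0.00651) and Bcl2 at -0.40 ± 0.11 (limma, adjusted p = 0.0377). Bcl2l11, the longest of the 10 at 11982 bases, was at 0.35 ± 0.10 (limma, adjusted p = 0.0393) in that fit and passed in none of the other 12 alternatives. Bax, the shortest at 958 bases, was at 0.19 ± 0.06 (limma, adjusted p = 0.0591).

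**Figure D4:**
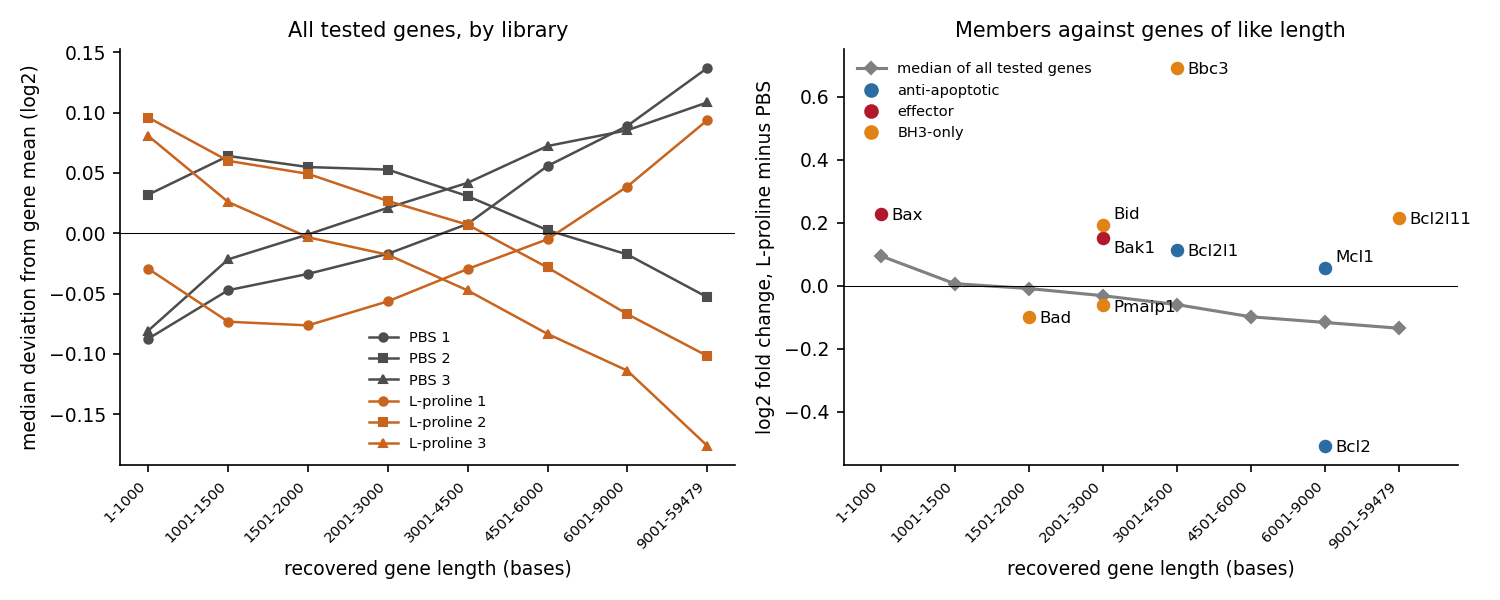
Left, the median deviation (log2) of genes from their own mean over 6 libraries, by band of gene length, 1 line per library; right, log2 fold changes of the 10 genes (points) beside the median of all tested genes in each band (grey line, from 0.10 to -0.13). Bbc3 and Bcl2 lie farther from the grey line than the other 8 genes.

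The wider pathway was read from 10 lists of 79 genes, of which 72 were listed in the table and 66 tested. In all 13 rose, 9 fell and 44 did not pass, beside 7.50% and 12.1% over all tested genes.

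Further relatives, 6 on the anti-apoptotic and 9 on the pro-apoptotic list, held 7 tested genes, of which 0 rose and 3 fell. Bcl2l12 fell from 5.58 ± 0.303 to 3.61 ± 0.465 FPKM (SD, n = 3; limma, adjusted p = 0.0103, and 0.0594 without PBS 3), and the BCL-w gene Bcl2l2 was at 21.4 and 19.4 FPKM and did not pass. Bnip3, an atypical BH3 gene best known for hypoxia-induced mitophagy, fell from 155 ± 6.63 to 76.0 ± 11.7 FPKM (SD, n = 3), or -1.03 ± 0.11 on the log2 scale (limma, adjusted p = 0.000826). Its paralogue Bnip3l fell as well, from 48.9 ± 1.87 to 33.8 ± 4.34 FPKM (SD, n = 3). Bmf at 0.23 and Bcl2l13 at 0.12 on the log2 scale did not pass, while Bik and Bcl2l15 lay under the filter.

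The caspase genes fell or did not pass. Of 7 tested, 0 rose and 3 fell, with a median log2 fold change of -0.27. Among them Casp6 fell from 32.1 ± 0.281 to 26.5 ± 0.366 FPKM (SD, n = 3), and Casp8, the initiator caspase of death receptors, from 14.2 ± 0.280 to 10.5 ± 1.66 (SD, n = 3). Their adjusted p-values were 0.0215 and 0.0354 (limma), and both missed the threshold without any 1 of the 3 PBS libraries, at 0.0658 to 0.104 for Casp6 and 0.0847 to 0.126 for Casp8. Casp6 also missed it without L-proline 2 (0.0559) and with median-of-ratios scaling (0.0762), and Casp8 without L-proline 3 (0.0728) and with no filter (0.0531). Casp2, at a log2 fold change of -0.29, did not pass, and did so without L-proline 1 (limma, adjusted p = 0.0419).

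Of 9 tested genes of the apoptosome and of mitochondrial release, 1 rose and 1 fell, both narrowly. Diablo, whose protein relieves caspases of their inhibitors, was at 6.96 ± 0.0872 and 8.45 ± 0.0437 FPKM (SD, n = 3; limma, adjusted p = 0.0462), and the outer membrane channel gene Vdac1 at 90.5 ± 3.76 and 76.7 ± 4.01 (SD, n = 3; limma, adjusted p = 0.0481). Each passed in 5 of 13 alternatives, and Diablo missed the threshold without any 1 of the 6 libraries, at an adjusted p of 0.0607 to 0.156 (limma). Vdac1 missed it without any of them but L-proline 3. Of 4 tested caspase inhibitors 1 fell, Birc5 (survivin, also a cell division gene), from 27.4 ± 1.23 to 19.3 ± 2.17 FPKM (SD, n = 3). Xiap was at 2.45 and 2.25 FPKM, and Birc6, at a log2 fold change of -0.34, passed only without L-proline 1 among the 13 alternatives (limma, adjusted p = 0.0422).

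Upstream, 6 of 8 tested genes of the p53 list rose and 0 fell, with a median log2 fold change of 0.54. Cdkn1a, which encodes the cell cycle inhibitor p21, rose from 244 ± 10.4 to 377 ± 34.1 FPKM (SD, n = 3), the nuclease gene Aen from 9.13 ± 1.04 to 14.9 ± 1.68, Ccng1 from 125 ± 10.9 to 230.2 ± 63.3 and Mdm2, which ubiquitinates p53, from 26.8 ± 2.61 to 37.3 ± 4.85. Their log2 fold changes were 0.62, 0.65, 0.85 and 0.46, and limma gave an adjusted p = 0.00191, 0.00604, 0.0150 and 0.0241. Mdm2 missed the threshold without any 1 of the PBS libraries and without L-proline 2, at an adjusted p of 0.0537 to 0.0686 (limma), and Ccng1 without L-proline 2 (adjusted p = 0.0507). Of the known p53 targets within the family Bbc3 rose, and Bax and Pmaip1, at 0.23 and -0.06, did not pass. The element searched for before Bbc3 also stood before 5 of 6 genes of this list in the promoter table, against 1.36% of all genes. The 5 were Trp53, Cdkn1a, Ccng1, Aen and Sesn1. Of these Trp53 and Sesn1, not named by the rule, did not pass, at log2 fold changes of 0.03 and -0.11. Its tolerance was chosen after the Bbc3 sequence had been seen, so this count carries no test.

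In the list of stress regulators known to act on BH3-only genes 5 of 8 rose and 0 fell. Ddit3, which encodes CHOP, a known activator of Bcl2l11 and Bbc3 and repressor of Bcl2, went from 12.2 ± 1.70 to 27.5 ± 2.64 FPKM (SD, n = 3), or 1.11 ± 0.11 on the log2 scale (limma, adjusted p = 0.000726). Atf4 went from 118 ± 11.5 to 223 ± 13.98, Atf3 from 3.05 ± 0.446 to 6.15 ± 1.06 and Trib3 from 1.52 ± 0.354 to 19.3 ± 5.78 FPKM (SD, n = 3). In the death receptor list 1 of 7 tested genes rose and 0 fell: Tnfrsf10b, which encodes the TRAIL receptor and is known to be induced by CHOP and p53, went from 14.9 ± 0.424 to 20.1 ± 2.01 FPKM (SD, n = 3; limma, adjusted p = 0.0154). It missed the threshold without PBS 1 (adjusted p = 0.0694) and without PBS 3 (adjusted p = 0.0655; limma). Fas, Tradd and Cflar, at log2 fold changes of 0.22, -0.26 and -0.18, did not pass.

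Of 6 tested genes of MCL1 and BIM protein turnover 0 passed with limma, and 2 had an unadjusted p under 0.05, Mapk3 among them. Voom on recovered fragments gave 0 calls as well for Mapk3, the MCL1 ubiquitin ligase gene Huwe1 and the deubiquitinase gene Usp9x. Without L-proline 1 Huwe1 and Usp9x were lower at an adjusted p of 0.0327 and 0.0201, and Mapk3 was at 0.0403 with quantile normalization (limma). Of 10 tested BAD kinases and 14-3-3 genes 1 fell, Pim1, a kinase that phosphorylates BAD, from 21.6 ± 1.34 to 10.7 ± 1.53 FPKM (SD, n = 3), or -0.96 ± 0.11 on the log2 scale (limma, adjusted p = 0.00132). Pim3 was at 18.6 and 14.6 FPKM, and the 14-3-3 genes Ywhae and Ywhab at log2 fold changes of -0.22 and -0.13, without passing.

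**Figure D5:**
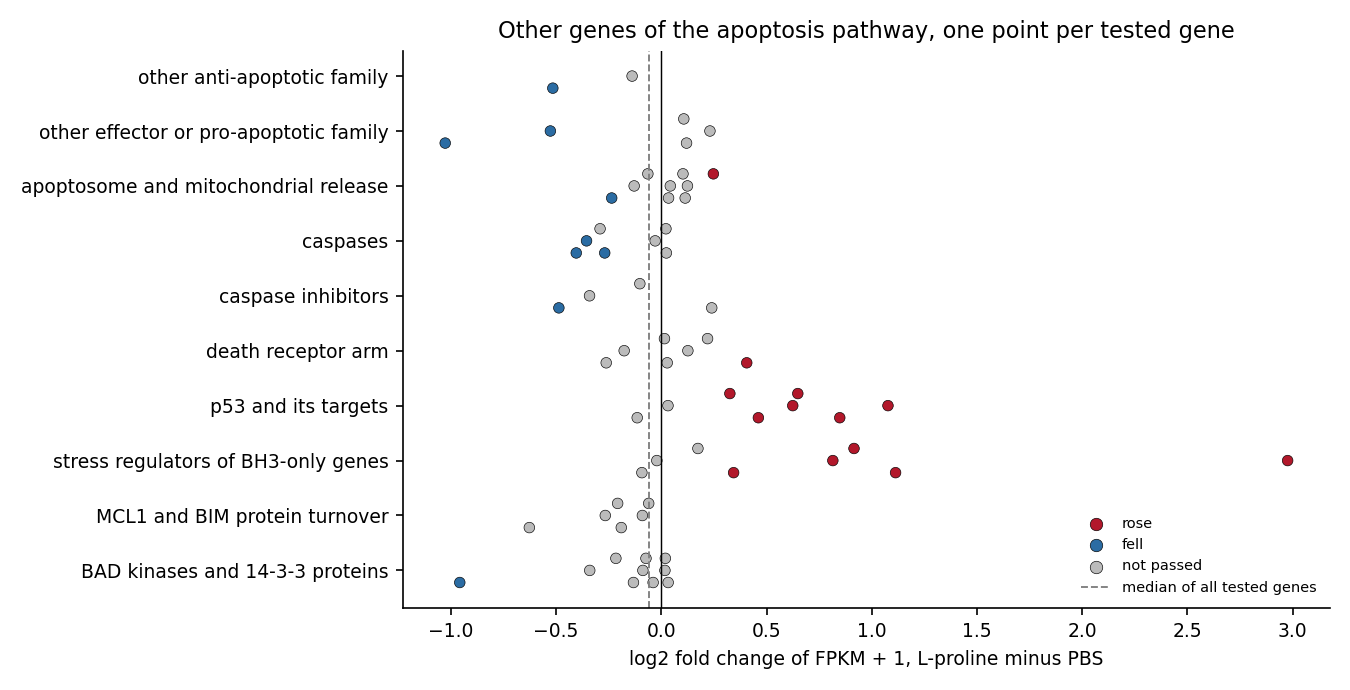
Each point is 1 of the 66 tested genes in 10 lists around the family, placed by its log2 fold change of FPKM + 1, L-proline minus PBS (horizontal axis), and coloured by whether it rose, fell or did not pass; the dashed line is the median of all tested genes, -0.06. Points that rose lie mostly in the p53 list (6 of 8) and the list of stress regulators (5 of 8), and 3 of 7 caspase genes fell.

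Outside these lists, the 3 tested genes whose log2(FPKM + 1) followed Bbc3 most closely over the 6 libraries were Mtss2, Rgma and Trmu, with Pearson correlations of 0.998 for each. These correlations are a description over 6 libraries in 2 groups and follow largely from the gap between groups. Trmu, a mitochondrial tRNA-modifying enzyme gene, was at 4.54, 4.58 and 4.53 FPKM in PBS 1, 2 and 3, and at 7.44, 6.42 and 8.89 in L-proline 1, 2 and 3. L-proline 3 was highest and L-proline 2 lowest of the L-proline libraries, the order seen in Bbc3. Trmu was chosen for its likeness to Bbc3 over these same libraries, so the shared order is no separate result.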

How the data were processed

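RNA sequencing was done on 6 libraries, 3 per group. The authors deposited 1 table of FPKM values with 14408 gene symbols, per the file headers. HISAT2, HTSeq 0.13.5 and build GRCm39 are named in the submitters' processing notes; annotation and strand setting are not given in the sources used here. Whole fragments were recovered for 14407 genes: library totals from 13 mitochondrial genes, then gene lengths (tolerance 0.01 fragments). A recovered length is that of the authors' gene model. Genes with a mean of at least 1 FPKM over the 6 libraries entered limma 3.58.1 (R 4.3.3) as log2(FPKM + 1) (empirical Bayes with a mean-variance trend), with no replicate block. Recovery, limma and motif search were tested on simulated data. The family members and gene lists were chosen with earlier results of these data known. Named genes are the 10 members, up to 4 tested genes per list with the smallest unadjusted p, and 3 genes most correlated with the member of smallest p; genes said to be outside this rule were chosen after their values were seen. Other settings numbered 13: pseudocount 0.1, no filter, median-of-ratios, quantile, replicate block, voom on fragments, 6 with 1 library left out, and, chosen after seeing the data, length trend removed (lowess span 0.3). Values of some single genes in the lists are not reported here.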

Additional observations from a re-analysis of the deposited data

How the results depend on the processing

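The number of family genes that passed was 2 in the reported fit. It was 1 (Bbc3) with a pseudocount of 0.1, 1 with no filter and 1 after scaling by median of ratios, and 3 with quantile normalization (Bax, Bbc3 and Bcl2) and with the length trend removed (Bbc3, Bcl2 and Bcl2l11). Leaving out 1 library gave 1 to 2. Over all genes 2056 passed (788 higher, 1268 lower), with 874 to 2770 when 1 library was left out: 976 without PBS 1 and 874 without PBS 3. The split was 993 higher and 919 lower by median of ratios, 1079 and 1015 with quantile normalization, and 1164 and 1139 with the length trend removed. Pmaip1 changed sign to 0.0361 with quantile normalization, and ran from -0.148 without L-proline 1 to 0.0617 without L-proline 3. Xiap (-0.10) changed sign to 0.0266 with the length trend removed, and ran from -0.270 without L-proline 1 to 0.0742 without L-proline 3; the cause was not tested. With a replicate block 2383 genes passed, 3 of them family genes (Bax, Bbc3 and Bcl2). Whether the replicate numbers pair the libraries cannot be told from 3 libraries per group. Deviations of same-numbered libraries correlated at 0.65, 0.42 and -0.35, and not every library correlated best with its own number. Bcl2l1, Mcl1, Bak1, Bid and Bad kept their direction and stayed above the threshold in 13 of 13 alternatives. Depth was lowest for Pmaip1, at 258 to 377 fragments per library, and Bcl2 had 364 to 923.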
